A study of Rattus norvegicus with 4 samples.

Results

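Interferon-stimulated antiviral genes and the receptors and transcription factors of interferon signalling were followed in epithelium around teeth and around dental implants of the rat. The set was a list of 37 genes, each measured where a probe set on the array carried its symbol alone, and represented by the probe set with the highest mean signal over all arrays. Of the 37 genes, 35 were found this way among 14217 genes measured, and Ddx58, which encodes the RNA sensor RIG-I, and Xaf1 were not analysed here. Transcript levels came from 4 Affymetrix arrays, each hybridised with amplified RNA from laser-microdissected epithelium. On 2 of them the RNA was of junctional epithelium, the gingival lining attached to a tooth, and on the other 2 of peri-implant epithelium, the lining that forms against an implant. All came from male Sprague Dawley rats, an outbred stock, that lost an upper left first molar at 4 weeks of age and received a titanium alloy implant. The 20 rats were killed 4 weeks after the implant was placed, and both groups carry the label of tooth extraction and implant placement. The labels do not say whether an array holds RNA of 1 rat or of several, or whether both epithelia came from the same rats, so the p-values below measure only the spread between these samples, which may be technical. The series title names 3 genes of the peri-implant side, and one of them, Gbp2, is itself an interferon-induced GTPase that was left out of the list.

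Interferons are cytokines, and those of type I are released when a cell senses viral or microbial nucleic acid. Type I interferons bind the receptor chains Ifnar1 and Ifnar2, and type II interferon binds Ifngr1 and Ifngr2. Janus kinases on the receptors then phosphorylate STAT proteins. Stat2 and Irf9 belong to the complex that binds the interferon-stimulated response element in promoters, and STAT dimers bind the gamma-activated site. The induced proteins block viral entry, translation or replication, and epithelial cells keep some of them expressed without infection.

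Signals were deposited on a log2 scale, on which a step of 1 is a doubling. The highest value that any of 27 control probe sets for bacterial genes reached on any array, 6.42, is used as the background level. Bacterial controls with a bright signal on any array had been left out first as spiked, so the level depends on that cut. Pearson's r over all probe sets was 0.914 and 0.911 between arrays of the same epithelium and 0.882 to 0.887 between arrays of different epithelia. Keratinocyte markers were bright in both groups, Krt5 at 15.84 to 16.23 and Trp63 at 12.60 to 12.90. Collagen genes of fibroblasts were bright as well, with Col1a1 at 14.00 to 14.40, so neither capture was free of connective tissue RNA. The median replicate SD fell from 0.32 for probe sets with a mean of 6 to 8 to 0.09 above 10.

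Promoters are printed here because interferon-stimulated genes are known for a shared regulatory sequence. They are those of 5 listed genes that were higher in peri-implant epithelium and that of Oas1b, which was not measurable but has the same matches as Oas1a. No window of a measurable gene that did not pass is printed. For 26 of the 35 measured genes RefSeq (assembly GRCr8) gave a window from 250 bases before to 50 bases after 1 start site of the gene. That start site was the outer edge of the gene's annotated span for 12 of the 26 genes and lay 7 to 5330 bases inside it for the other 14, and distances below are from the start site of the window. The core of the interferon-stimulated response element was searched on both strands as GAAANNGAAA, where N is any base. It was present in 14 of the 26 windows (53.8%), against 2.99% of the 11700 windows of genes measured on the arrays. Of the 14 listed genes with a match, 5 passed the test below as higher in peri-implant epithelium, and of the 12 without, 2 did. The 9 measured genes without a window are outside this split. Among them are Isg15, Ifitm1 and Ifit2, which had the largest differences that passed. A match is a description of these letters and no evidence of a bound factor. Each window is written 5′ to 3′ on the gene's strand, with matches in capitals. Ifit3, Ifitm3 and Parp14 held 1 match each, beginning 44, 44 and 76 bases before the start. Oas1a and its neighbour Oas1b each held a pair of overlapping matches, beginning 41 and 35 bases before the window's start site in Oas1a and 59 and 53 in Oas1b. These start sites lie 43 bases inside the annotated span of Oas1a and 39 inside that of Oas1b. The windows of Ifngr2, shown last, and of Irf9, whose start site lies 414 bases inside its span, held none, although both genes were higher in peri-implant epithelium.
Ifit3 promoter (chr1:241527076-241527375, plus strand): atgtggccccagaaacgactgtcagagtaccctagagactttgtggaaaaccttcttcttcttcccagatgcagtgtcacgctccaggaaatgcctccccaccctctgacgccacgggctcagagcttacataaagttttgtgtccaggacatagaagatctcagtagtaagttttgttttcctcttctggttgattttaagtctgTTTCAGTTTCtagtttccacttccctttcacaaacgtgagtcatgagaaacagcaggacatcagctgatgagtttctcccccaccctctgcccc
Oas1a promoter (chr12:41330216-41330515, plus strand): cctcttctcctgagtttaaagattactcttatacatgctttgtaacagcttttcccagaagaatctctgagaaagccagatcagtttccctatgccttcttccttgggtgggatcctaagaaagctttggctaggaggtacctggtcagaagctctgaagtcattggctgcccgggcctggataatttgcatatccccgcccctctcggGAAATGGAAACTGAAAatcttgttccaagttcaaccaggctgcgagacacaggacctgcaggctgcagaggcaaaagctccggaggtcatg
Oas1b promoter (chr12:41395803-41396102, minus strand): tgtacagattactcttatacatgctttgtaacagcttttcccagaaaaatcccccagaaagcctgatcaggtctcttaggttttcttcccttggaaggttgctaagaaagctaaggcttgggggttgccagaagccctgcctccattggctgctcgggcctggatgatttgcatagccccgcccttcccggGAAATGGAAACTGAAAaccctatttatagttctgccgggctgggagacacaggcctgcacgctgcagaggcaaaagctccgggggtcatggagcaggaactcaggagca
Ifitm3 promoter (chr1:205541709-205542008, minus strand): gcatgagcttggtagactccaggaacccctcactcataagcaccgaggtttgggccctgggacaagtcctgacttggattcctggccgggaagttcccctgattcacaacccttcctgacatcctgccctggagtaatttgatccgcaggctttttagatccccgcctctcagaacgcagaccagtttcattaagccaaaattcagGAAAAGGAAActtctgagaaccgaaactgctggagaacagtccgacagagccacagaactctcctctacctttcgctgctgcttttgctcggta
Parp14 promoter (chr11:78407884-78408183, plus strand): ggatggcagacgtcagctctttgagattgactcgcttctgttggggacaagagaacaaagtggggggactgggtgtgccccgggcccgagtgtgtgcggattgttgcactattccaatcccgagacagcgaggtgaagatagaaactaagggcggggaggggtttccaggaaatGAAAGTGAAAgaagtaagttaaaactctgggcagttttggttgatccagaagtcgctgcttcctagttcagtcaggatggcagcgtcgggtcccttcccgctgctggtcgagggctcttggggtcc
Ifngr2 promoter (chr11:44265453-44265752, plus strand): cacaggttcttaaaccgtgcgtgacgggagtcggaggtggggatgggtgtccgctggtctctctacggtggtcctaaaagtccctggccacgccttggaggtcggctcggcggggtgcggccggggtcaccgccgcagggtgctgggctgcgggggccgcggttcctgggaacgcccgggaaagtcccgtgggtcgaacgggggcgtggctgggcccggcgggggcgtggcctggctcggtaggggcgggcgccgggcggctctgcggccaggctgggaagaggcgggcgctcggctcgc
The looser core of the gamma-activated site, TTCNNNGAA, which reads the same on both strands, was present in 9 of the 26 windows (34.6%), against 6.99% of the windows of genes on the arrays. Irf1, Irf8 and Irf9 were among the genes that held it. Both motifs contain GAA, so a stretch can belong to both, and such overlaps were not counted. The Ifngr2 window held neither.

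Peri-implant epithelium carried more transcript of 10 of the 35 genes and less of 0, by limma with an intensity trend in its variance prior (Benjamini-Hochberg adjustment over 31042 probe sets, threshold 0.05). At an unadjusted p under 0.05 17 of the 35 (48.6%) were higher and 0 lower, against 16.3% and 12.5% of all genes in the same fit. The 10 that passed were Isg15, Ifitm1, Ifit2, Ifngr2, Parp14, Ifit3, Oas1a, Irf9, Ifitm3 and Ifitm2, from 6.02-fold for Isg15 down to 1.34-fold for Ifitm2. They were 28.6% of the measured list, where 6.6% of all genes passed as higher and 4.8% as lower. Of the 32 listed genes with a group mean above background, 31.2% passed as higher, against 9.3% of all such genes. The median log2 difference of the list was 0.43, and that of all genes was 0.05. Because the list was drawn up with earlier results of these data known, these shares describe it and are no test of it. Both peri-implant arrays lay above both junctional arrays for 20 of the 35 genes (57.1%), against 31.2% of all genes, and below them for 3 (8.57%), against 25.2%. With limma's default variance prior none of the 35 passed (adjusted p from 0.125 to 0.993, and 12 with an unadjusted p under 0.05), as for all probe sets, where 0 passed and 5247 of 31042 had an unadjusted p under 0.05. Without junctional array 1, junctional array 2, peri-implant array 1 or peri-implant array 2, the number of the 10 that passed was 2, 2, 4 and 5, while the direction of all 10 was the same in each of these fits.

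**Figure D1:**
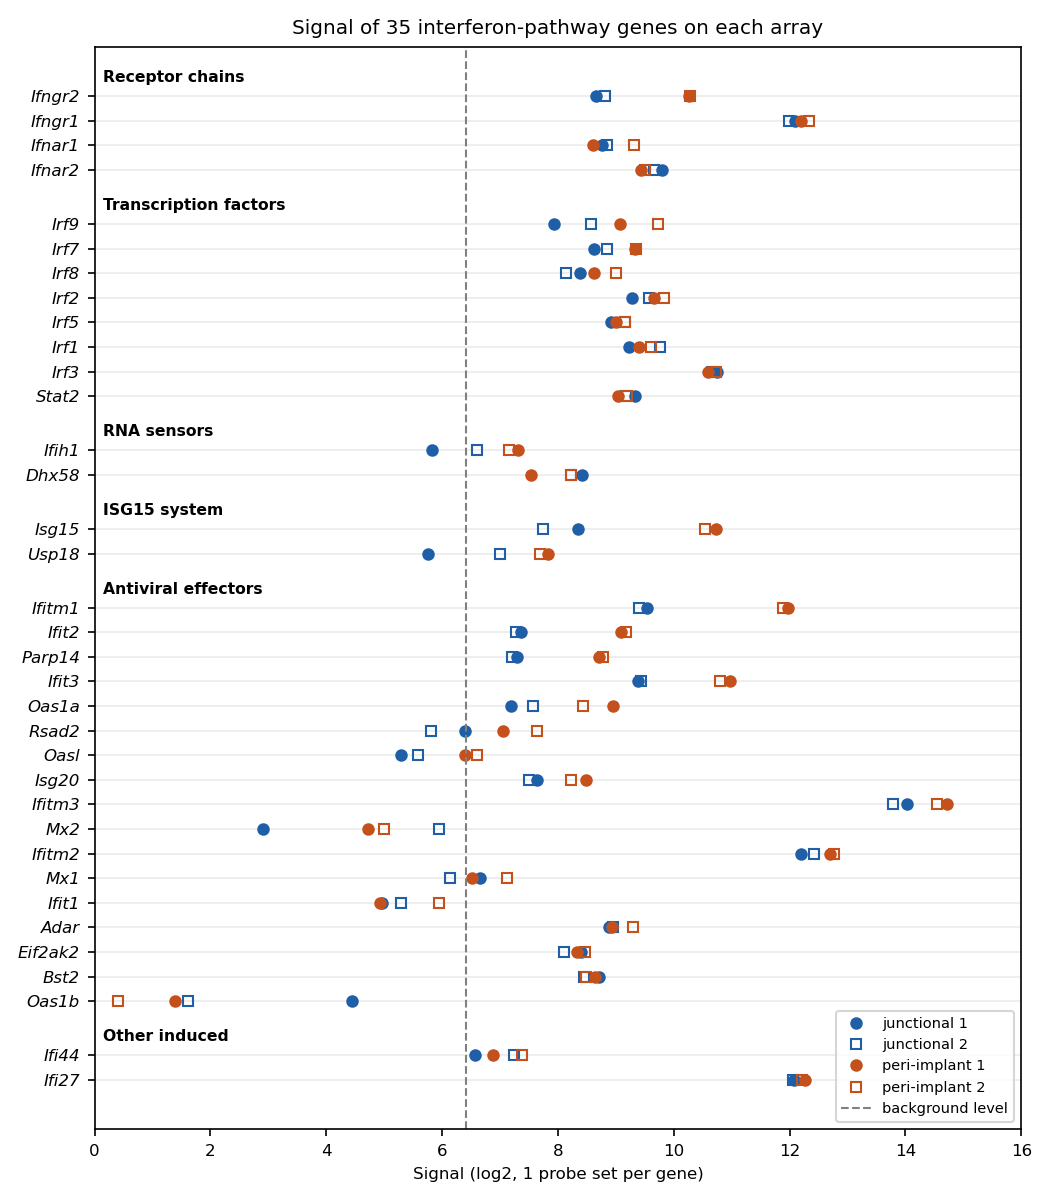
Signal (log2) of the 35 measured genes on each of the 4 arrays, by role, with the background level of 6.42 as a dashed line. The peri-implant arrays stand clear of the junctional arrays for Isg15, Ifitm1, Ifit2, Ifit3, Parp14 and Ifngr2, and overlap them for Irf1, Irf3, Stat2 and Bst2.

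**Figure D2:**
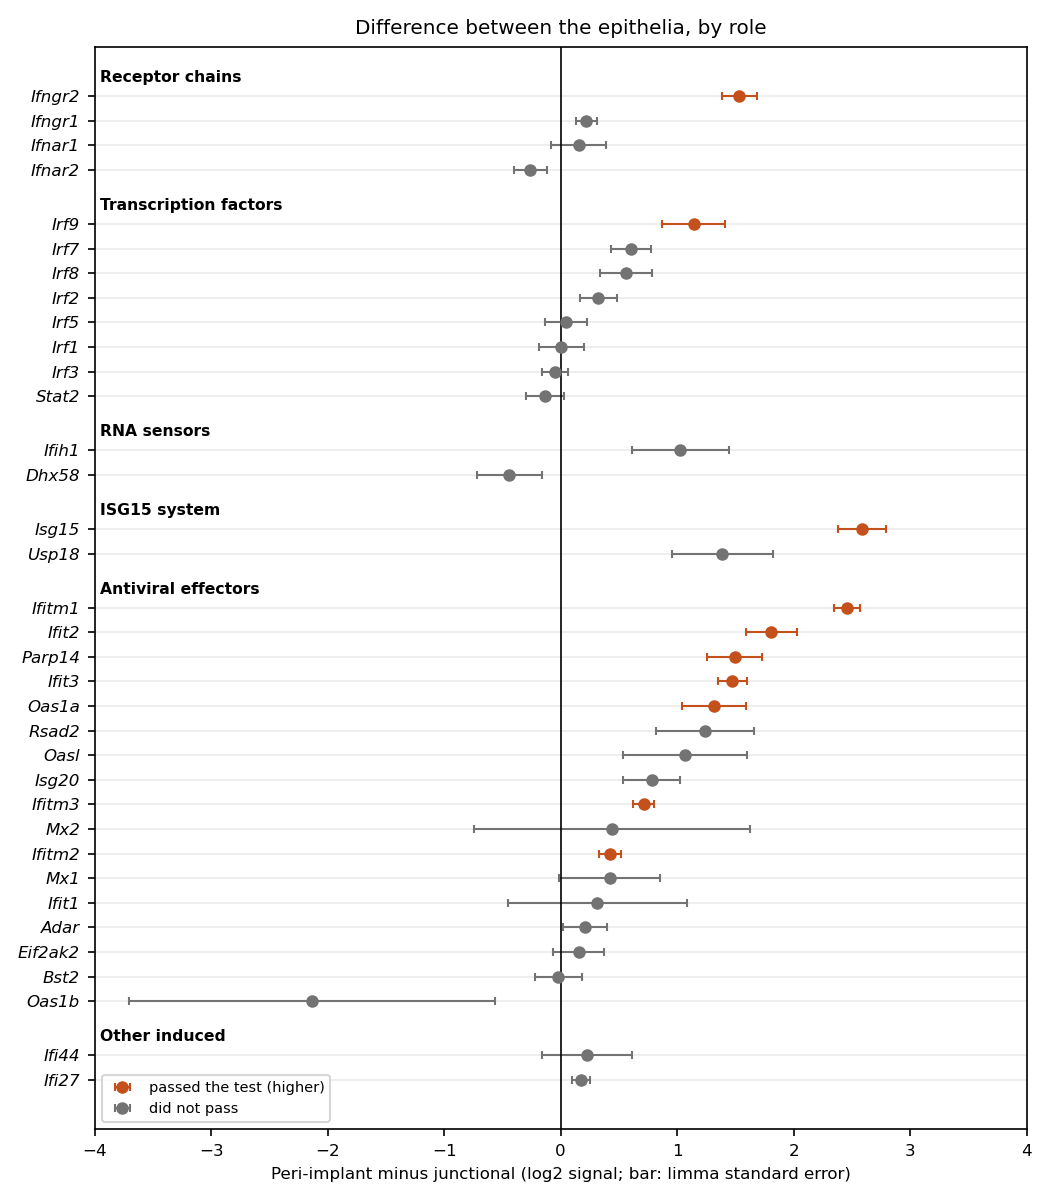
Difference in log2 signal, peri-implant minus junctional, of each gene with limma's standard error as a bar. The 10 genes that passed are in colour and all lie to the right of 0, from 0.43 for Ifitm2 to 2.59 for Isg15.

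Among the receptor chains, Ifngr2, the signalling chain of the interferon gamma receptor, was 2.89-fold higher in peri-implant epithelium, and the brightest probe sets of the other chains did not pass. The signal of Ifngr2 was 8.65 and 8.82 on the junctional arrays and 10.26 and 10.28 on the peri-implant arrays. The groups lay further apart than the arrays of either epithelium. The log2 difference was 1.53 ± 0.15 (limma standard error, n = 2 each, as for all differences below; adjusted p = 0.000328). A dimmer probe set of the gene also passed, with a difference of 1.00 (adjusted p = 0.024). Without junctional array 1 or 2 the brighter probe set narrowly missed the threshold (adjusted p = 0.056 and 0.0516).

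Ifngr1, the ligand-binding chain of the same receptor, was among the brightest genes of the list. Its signal was 12.10 and 11.99 on the junctional arrays and 12.19 and 12.33 on the peri-implant arrays. The groups did not overlap, but the difference was small (0.22, with a 95% interval of 0.02 to 0.42) and did not pass (adjusted p = 0.156).

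The probe sets of Ifnar1, a chain of the type I receptor, differed in size and in call. The brightest read 8.76 and 8.85 on the junctional arrays and 8.61 and 9.31 on the peri-implant arrays, which overlap, with a difference of 0.16 ± 0.24 (adjusted p = 0.742). Of its other 5 probe sets, 3 passed as higher, by 0.89 to 1.04 (adjusted p from 0.0308 to 0.0489), and 2 did not pass, of which 1 was below background on all 4 arrays. The 5 probe sets with an array above background all had a positive difference, from 0.16 to 1.04. The partner chain Ifnar2 read 9.79 and 9.66 on the junctional arrays and 9.42 and 9.51 on the peri-implant arrays, with no overlap, and a difference of -0.26 that did not pass (95% interval from -0.58 to 0.06, adjusted p = 0.307). In the assembly GRCr8 3 of the receptor genes lie close together on chromosome 11. Ifnar2 runs from 44099574 to 44131941, Ifnar1 from 44211769 to 44238206 and Ifngr2 from 44265703 to 44283975. The promoter window of Il10rb, a receptor chain described below, lies between Ifnar2 and Ifnar1, at 44132386 to 44132685.

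**Figure D3:**
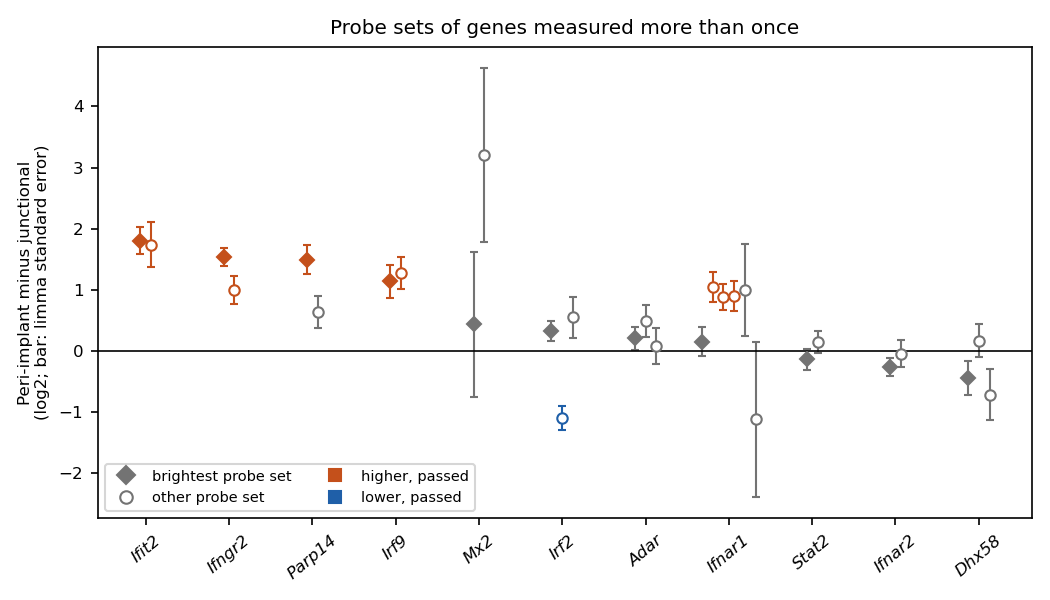
Log2 difference, peri-implant minus junctional, of every probe set of the 11 genes measured by more than 1, with limma's standard error as a bar, diamonds for the brightest probe set and open circles for the others. Both probe sets of Ifit2, Irf9 and Ifngr2 passed as higher, 3 of Ifnar1 passed as higher while its brightest did not, and those of Irf2 point in different directions.

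Of 8 transcription factors, 1 (12.5%) passed, Irf9, the DNA-binding subunit of the complex that holds Stat2. Its signal was 7.94 and 8.58 on the junctional arrays and 9.08 and 9.72 on the peri-implant arrays, a 2.21-fold difference. The spread between arrays of one epithelium was wide, yet the groups did not overlap. The log2 difference was 1.14 ± 0.27 (adjusted p = 0.0307), and the other probe set of the gene gave 1.28 (adjusted p = 0.0158). Leaving out any 1 array moved the difference to between 0.82 and 1.46 and ended the call (adjusted p from 0.0975 to 0.291).

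Irf7, the factor that amplifies type I interferon production, read 8.63 and 8.85 on the junctional arrays and 9.33 and 9.35 on the peri-implant arrays. The groups were apart by 0.60 ± 0.17, but the gene missed the threshold (adjusted p = 0.0597). Irf8, a factor of macrophages and dendritic cells, read 8.38 and 8.14 on the junctional arrays and 8.63 and 9.01 on the peri-implant arrays, without overlap and without passing (difference 0.56, adjusted p = 0.149).

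Irf2, an antagonist of Irf1 at shared sites, was measured by 3 probe sets that went different ways. The brightest read 9.27 and 9.56 on the junctional arrays and 9.65 and 9.84 on the peri-implant arrays (difference 0.32, adjusted p = 0.249). Another probe set, nearly as bright on the junctional arrays at 9.32 and 9.05, read 8.10 and 8.09 on the peri-implant arrays and passed as lower (difference -1.09, adjusted p = 0.00982). The direction of Irf2 thus depends on the probe set.

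The remaining factors differed little between the epithelia, and their arrays overlapped. Irf1, a primary target of interferon gamma, read 9.23 and 9.76 on the junctional arrays and 9.40 and 9.60 on the peri-implant arrays, with a 95% interval of the difference from -0.42 to 0.44. Irf3, the factor that first responds to nucleic acid sensors, read 10.75 and 10.67 against 10.59 and 10.73, with an interval from -0.29 to 0.20. For Irf5 the interval ran from -0.35 to 0.44 and for Stat2, the partner of Irf9, from -0.51 to 0.23. These intervals exclude the size of difference seen for Irf9, and not smaller ones.

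Isg15, a ubiquitin-like protein that is conjugated to other proteins after interferon, differed more than any other gene of the list that passed. It read 8.34 and 7.74 on the junctional arrays and 10.72 and 10.54 on the peri-implant arrays. Both peri-implant values were more than 2 units above the higher junctional value. The difference was 2.59 ± 0.21, or 6.02-fold (adjusted p = 0.000128), and the gene passed without any 1 array too (adjusted p from 0.0188 to 0.034).

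Usp18, the protease that removes Isg15 from proteins and also dampens the type I receptor, read 5.75 and 6.99 on the junctional arrays and 7.83 and 7.69 on the peri-implant arrays. Only 1 of the junctional arrays exceeded background. The difference of 1.39 ± 0.43 did not pass (adjusted p = 0.0791). Isg15 lies on chromosome 5 from 172066369 to 172067656 and Usp18 on chromosome 4 from 156143770 to 156171292.

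Of the antiviral effectors, 7 of 17 (41.2%) were higher and 0 lower, where 6.6% and 4.8% of all genes were. The interferon-induced transmembrane proteins, which block entry of enveloped viruses at membranes, held both the widest difference of the 7, in Ifitm1, and the narrowest, in Ifitm3 and Ifitm2. Ifitm1 read 9.54 and 9.40 on the junctional arrays and 11.98 and 11.88 on the peri-implant arrays. Each pair agreed closely, and the difference of 2.46 ± 0.11 (5.49-fold) had the smallest adjusted p of the list, 3.44e-06. It passed without any 1 array (adjusted p from 0.0051 to 0.0123).

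Ifitm3, the family member best known for blocking influenza virus, was the brightest gene of the list in both epithelia. Its signal was 14.03 and 13.79 on the junctional arrays and 14.72 and 14.54 on the peri-implant arrays. Despite the high level in junctional epithelium the groups were separate, by 0.71 ± 0.09 or 1.64-fold (adjusted p = 0.00178). Ifitm2 read 12.19 and 12.42 against 12.70 and 12.77, a 1.34-fold difference (0.43 ± 0.09, adjusted p = 0.0222). Its call was lost with each array centred on its median (adjusted p = 0.0843) and without any 1 array (adjusted p from 0.116 to 0.24), and that of Ifitm3 without junctional array 1 or 2 or peri-implant array 1 (adjusted p from 0.0624 to 0.119). All 3 genes lie close together on chromosome 1, Ifitm2 from 205481168 to 205482348, Ifitm1 from 205496757 to 205498796 and Ifitm3 from 205540649 to 205541758. They are near-identical copies in part, so how far each probe set reads its neighbours was not tested.

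The IFIT proteins, which bind viral RNA and translation factors, differed in level and in call. Ifit2 read 7.36 and 7.28 on the junctional arrays and 9.09 and 9.17 on the peri-implant arrays, a 3.50-fold difference. Ifit3 was brighter in both epithelia, 9.38 and 9.43 against 10.97 and 10.79, a 2.78-fold difference. In both genes the groups lay further apart than the arrays of either epithelium. The differences were 1.81 ± 0.22 for Ifit2 (adjusted p = 0.00123) and 1.47 ± 0.13 for Ifit3 (adjusted p = 0.000175). A dimmer probe set of Ifit2 gave 1.74 (adjusted p = 0.0192).

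Ifit1, which recognises foreign RNA ends, lay below background on all 4 arrays, between 4.93 and 5.94. At such signals no level or difference of Ifit1 can be read. Without any 1 array, Ifit2 missed the threshold (adjusted p from 0.0524 to 0.0766), and Ifit3 missed it without junctional array 1 or 2 (adjusted p = 0.056 and 0.0532). The 3 genes stand in a row on chromosome 1, Ifit2 from 241515735 to 241521799, Ifit3 from 241527326 to 241532469 and Ifit1 from 241565197 to 241567262.

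The oligoadenylate synthetases, which signal the presence of double-stranded RNA to a ribonuclease, differed in level. Oas1a read 7.19 and 7.56 on the junctional arrays and 8.95 and 8.43 on the peri-implant arrays. The groups were separate, with a difference of 1.32 ± 0.27 or 2.49-fold (adjusted p = 0.0179). Its neighbour Oas1b, whose promoter held the same pair of matches, lay below background on all 4 arrays, between 0.40 and 4.45. Oasl read 5.29 and 5.58 on the junctional arrays, below background, and 6.39 and 6.61 on the peri-implant arrays, of which 1 exceeded it, and did not pass (adjusted p = 0.251). Rat Oas1 genes are a family of close copies, and cross-hybridisation of the Oas1a probe set was not tested. Without any 1 array Oas1a did not pass (adjusted p from 0.0896 to 0.205).

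Parp14, an ADP-ribosyltransferase induced by interferon, read 7.29 and 7.21 on the junctional arrays and 8.71 and 8.78 on the peri-implant arrays. This 2.82-fold difference (1.49 ± 0.24, adjusted p = 0.00513) was far wider than the spread within either epithelium. A second probe set read 7.73 and 7.35 against 8.16 and 8.19, in the same direction, and did not pass (adjusted p = 0.165). Nor did the first without any 1 array (adjusted p from 0.0795 to 0.104).

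Among effectors that did not pass, Isg20, an exonuclease, and Rsad2, which encodes viperin, had both peri-implant arrays above both junctional arrays. Isg20 read 7.64 and 7.51 on the junctional arrays and 8.48 and 8.23 on the peri-implant arrays (difference 0.78, adjusted p = 0.0804). Rsad2 was at or below background on the junctional arrays, at 6.40 and 5.81, and read 7.06 and 7.64 on the peri-implant arrays, at least 1.90-fold higher (adjusted p = 0.0998). Both sets of arrays were apart by more than their own spread, yet neither gene met the threshold over all probe sets.

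By their brightest probe sets, other effectors overlapped between the epithelia. Mx1, a GTPase that traps viral nucleocapsids, read 6.65 and 6.14 on the junctional arrays and 6.52 and 7.12 on the peri-implant arrays. The signal stood near background, and the 95% interval of its difference was wide, from -0.55 to 1.39. Mx2 lay below background on all 4 arrays, between 2.90 and 5.94. Better measured were Eif2ak2, the RNA-activated kinase that stops translation, with an interval from -0.34 to 0.65, Adar, which edits double-stranded RNA, from -0.21 to 0.63, and Bst2, which tethers budding virions, from -0.48 to 0.44. For these 3 genes differences of the size seen for Ifit2 or Isg15 lie outside the intervals. A dimmer probe set of Adar did not overlap, with a difference of 0.49 (95% interval from -0.10 to 1.08). Another overlapped, with a difference of 0.09, and neither passed.

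Of the RNA sensors, Ifih1, which encodes MDA5, read 5.83 and 6.59 on the junctional arrays and 7.31 and 7.16 on the peri-implant arrays, with no overlap of the groups, and did not pass (difference 1.03 ± 0.42, adjusted p = 0.162). Dhx58, which encodes the regulator LGP2, read 8.42 and 8.22 against 7.53 and 8.22 (difference -0.44, adjusted p = 0.371), and its 3 probe sets did not share a direction. Ifi27 was bright and nearly level, at 12.07 and 12.06 on the junctional and 12.27 and 12.21 on the peri-implant arrays (adjusted p = 0.216). Ifi44 read 6.56 and 7.25 against 6.88 and 7.38, overlapping (adjusted p = 0.778). No listed gene of these groups passed in either direction.

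**Figure D4:**
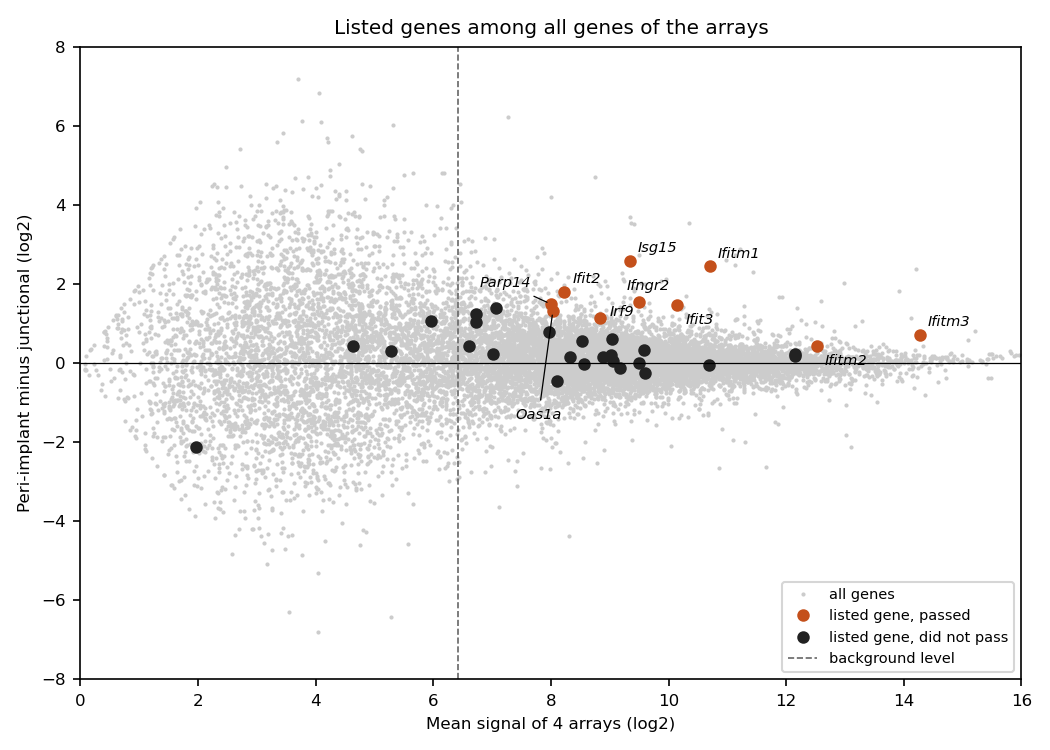
Difference in log2 signal against mean log2 signal over 4 arrays for all 14217 genes (grey) and the 35 listed genes. The 10 genes that passed (coloured, named) lie above the background level, and genes below the background level of 6.42 scatter widely around 0.

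Other genes of the pathway were counted by list. Of 82 such genes 55 were measured, and 15 were higher (27.3%), 2 lower (3.64%) and 38 did not pass. Of all genes, 6.6% passed as higher and 4.8% as lower. Other interferon-stimulated effectors had 11 of 28 measured genes higher (39.3%), 0 lower and a median log2 difference of 0.66. Rtp4 was below background on the junctional arrays, at 5.84 and 6.09, and read 8.10 and 8.04 on the peri-implant arrays, at least 3.14-fold higher (adjusted p = 0.00586). The ADP-ribosyltransferases Parp10 and Parp12 were higher by 1.44 ± 0.33 and 1.01 ± 0.19. Ifi27l2b, Ifitm10 and Dtx3l, the partner of Parp9, were higher by 1.00, 0.90 and 0.82 (adjusted p from 0.00353 to 0.0103 for these 3). Whether each gene of this list, Ifitm10 among them, responds to interferon was not tested. Without any 1 array 0 of the 55 passed by limma, whose unadjusted p over all 4 arrays was under 0.05 for 25.0 higher (45.5%) and 5.0 lower (9.09%), where 16.3% and 12.5% of all genes were. The 27 genes that were not matched were not analysed here.

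In the kinase, STAT and SOCS list 2 of 10 measured genes (20.0%) were higher and 0 lower, where 6.6% and 4.8% of all genes were. Socs3, a feedback inhibitor of cytokine receptors, read 8.06 and 8.33 on the junctional arrays and 9.55 and 9.39 on the peri-implant arrays (difference 1.28 ± 0.19, adjusted p = 0.00394). Ptpn6, a tyrosine phosphatase of blood cells and epithelia, differed by 0.86 ± 0.21 (adjusted p = 0.0333). The kinases Jak1, Jak2 and Tyk2 did not pass. Nor did Stat3, Socs1, Ptpn2, Ptpn11 and Pias1, with differences of 0.35, 0.07, -0.18, 0.06 and -0.05. Of 9 nucleic acid sensors and adaptors 1 (11.1%) passed, Trim25, a ubiquitin ligase that activates RIG-I, higher by 0.61 ± 0.12 (adjusted p = 0.0118).

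The interferons measured were at or near background. Ifnb1 ranged from 1.69 to 5.63 and Ifng from 2.23 to 5.03 over the 4 arrays, all below the background level. Ifnk, an interferon of keratinocytes, read 6.83 and 6.70 on the junctional arrays and 2.76 and 5.84 on the peri-implant arrays, below background there (at least 1.27-fold lower, adjusted p = 0.144). Ifnlr1, the receptor chain for type III interferons that act on epithelia, passed in the opposite direction to Ifngr2. It read 9.55 and 9.63 on the junctional arrays and 8.81 and 8.64 on the peri-implant arrays, 1.82-fold lower in the latter (difference -0.86 ± 0.16, adjusted p = 0.0126). Its partner chain Il10rb had a difference of -0.26 and did not pass (adjusted p = 0.124). Of 3 cofactors and homologues named after the IRF family, Irf2bpl was higher by 0.46 and Irf2bp2 lower, by a difference of -0.46 (adjusted p = 0.0345 and 0.0489), and the mean of 3 probe sets of Irf2bpl gave -0.09.

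**Figure D5:**
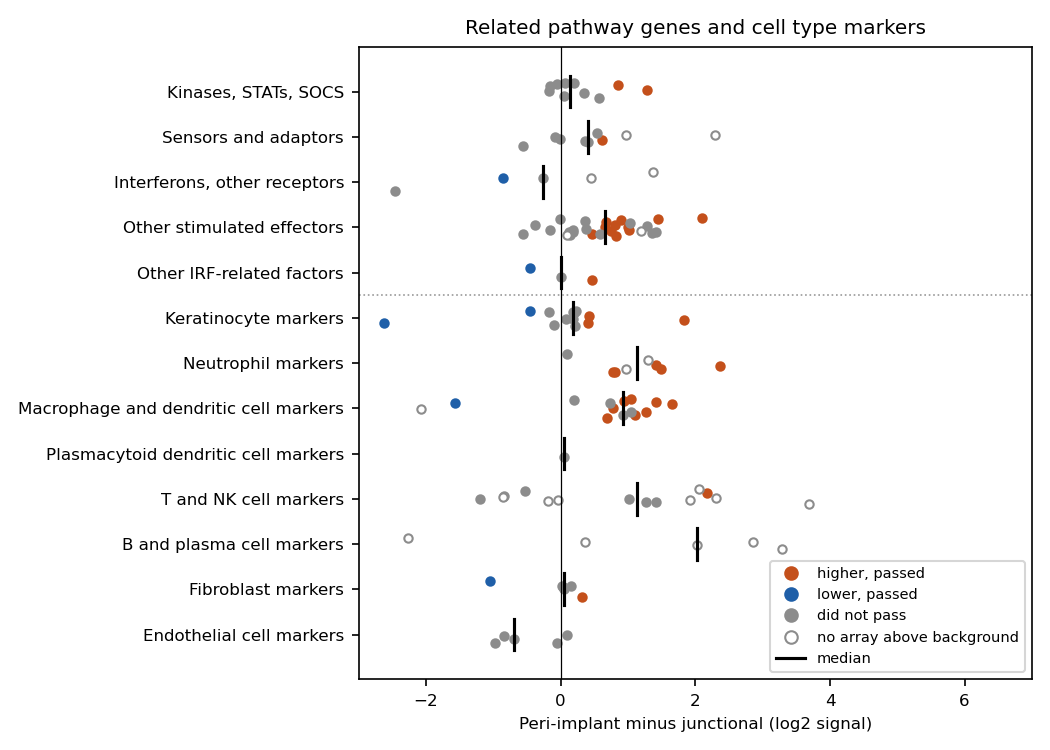
Log2 difference, peri-implant minus junctional, of each measured gene in 5 lists of related pathway genes and 8 lists of cell type markers, with the list median as a bar and open circles for genes with no array above background. Stimulated effectors and the neutrophil and macrophage markers lie mostly to the right of 0.

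Markers of macrophages and dendritic cells (57.1%) and of neutrophils (62.5%) passed as higher more often than all genes did (6.6%, and 4.8% as lower). These shares describe lists chosen with earlier results known. Of 14 measured markers of macrophages and dendritic cells 8 were higher and 1, Mrc1, lower, and their summed linear signal was 11255 to 11645 on the junctional and 20919 to 21522 on the peri-implant arrays. The brightest marker of that list, Cd74, weighs most in the sum, at 11.89 and 12.05 on the junctional and 13.04 and 12.99 on the peri-implant arrays. No marker of that list stood at 0, and Cd163 was below background on all 4 arrays. Of 8 measured neutrophil markers 5 were higher, with a summed signal of 40301 to 40704 against 92180 to 105421, most of it from S100a8 and S100a9, which keratinocytes also make. The arrays of Mmp9 overlapped, and Mmp8 and Itgam were below background on all 4 arrays. Elane and Mpo were not matched. For T and NK cells 1 of 14 markers (7.14%), Cd2, was higher. Cd2, Cd3g, Cd4 and Cd8a were below background on both junctional arrays and above it on both peri-implant arrays. Of these, Cd3g, Cd4 and Cd8a did not pass (adjusted p from 0.0916 to 0.248). The arrays of Cd5 and Lck overlapped. The remaining 8 of 14 markers, Cd3d and Cd3e among them, were below background on all 4 arrays, and Gzmb was at 0 on an array. All 5 measured markers of B and plasma cells were below background. The keratinocyte list had 3 of 13 higher and 2 lower, and its summed signal was 265969 to 273635 against 288953 to 336217. Of 6 fibroblast markers Col1a1 was higher and Pdgfra lower, and of 5 endothelial markers 0 passed. Of the plasmacytoid dendritic cell markers only Tcf4 was measured, with overlapping arrays. The part that leukocytes have in the differences of the interferon-stimulated genes was not tested. In such samples fewer cells of a type and less RNA per cell cannot be told apart.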

How the data were processed

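The table holds log2 signals of 31099 probe sets on 4 arrays, as deposited by the authors. The software and normalization behind them are named in no source used here. In the values, the 2% trimmed mean of the linear signal is 500.19 on every array, and 378 to 729 values per array are 0. No array was normalized again. After 57 control probe sets were left out, 31042 were tested: 20826 carried 1 symbol in the platform annotation, 436 several and 9780 none. Peri-implant was compared with junctional epithelium with limma 3.58.1 in R 4.3.3 (lmFit, then eBayes with an intensity trend and a robust prior, a two-sided test with 2 residual degrees of freedom); p-values were adjusted over all probe sets by the Benjamini-Hochberg method. A gene passed at an adjusted p under 0.05. The members, lists and this prior were chosen with earlier results of these data known, among them that the default prior passes no probe set. A group wholly at or below background gives only a lower bound of a fold. Every member was accounted for, and up to 6 related genes per list were named, the largest differences first among those that passed; related genes named without passing, and Irf2bpl's other probe sets, were chosen after their values were seen. The number of arrays limits precision. In 5 simulated sets of 31042 probe sets, changes were placed only in probe sets with a mean above background. There, log2 changes of 1 and 2 were found in 58.4% and 90.8% of cases. These rates do not cover dimmer probe sets. Changes of 1, 2, 3 and 4, in 250 cases each, were found 146, 227, 249 and 250 times, beside 81 false calls over the 5 runs. The default prior found 0. The simulated noise had a variance set by the signal alone, which is what the intensity trend assumes, so these sets cannot rank the priors. Alternatives were other priors, scalings, filters and probe set rules, the replicate number as a block, and each array left out.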

Additional observations from a re-analysis of the deposited data

How the results depend on the processing

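The default variance prior left 0 genes called (0 higher and 0 lower), 0 of the listed genes and 0 of the related genes. Leaving out 1 array at a time, where a lone array is assumed to vary like the others, left 55 to 228 genes called, 45 to 104 higher and 9 to 124 lower, 2 to 5 listed genes, all higher, and 0 related genes. The fewer arrays leave 1 residual degree of freedom. Under the 8 other alternatives, between 9 and 13 listed genes passed. The median log2 difference of the list was 0.30 to 0.61 without 1 array and 0.28 with signals below background raised to it. Of 673 values of 52 named genes under 13 alternatives, 513 kept direction and side of the threshold, 132 no longer passed, 10 newly passed (Irf7, Isg20 and Usp18) and 18 changed sign. Those 18 belong to 11 genes, of which only Irf2bpl had passed. With the mean of all probe sets they were -0.0727 for Irf2, 0.0083 for Stat2 and -0.0897 for Irf2bpl. Quantile normalization gave -0.0025 for Irf1, and median centring gave -0.0408 for Irf1 and -0.0019 for Irf5. Without 1 array the differences ran from -0.2591 to 0.2732 for Irf1, -0.1163 to 0.0218 for Irf3, -0.0740 to 0.1660 for Irf5, -0.1922 to 0.5060 for Ifnar1, -0.1862 to 0.8181 for Ifit1, -1.0764 to 1.9596 for Mx2, -0.1541 to 0.1148 for Bst2 and -0.1159 to 0.5684 for Ifi44. The cause of these changes was not tested. With the replicate number as a block (replicate block), 2396 genes and 12 listed genes passed, against 1620 and 10 without it. Same-numbered arrays deviated together little (correlation over probe sets 0.04), and nothing in the labels says that the numbers pair the samples.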
